A study of Mus musculus with 6 samples.

Results

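The genes described here are 10 members of the Nrf2 antioxidant pathway, measured in primary mouse prostate cells with Rb intact or deleted. They were chosen by name, as all non-control probes of the arrays whose RefSeq transcript belongs to Nfe2l2, Keap1, Nqo1, Hmox1, Gclc, Gclm, Txnrd1, Srxn1, Slc7a11 or Sod2. This gave 11 probes for 10 genes, 2 of them for Hmox1, among 27427 named probes for 20832 genes on the array. All 10 genes were well above background on all 6 arrays and were among the 13731 genes tested.

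The cells came from p53-/- mice whose Rb gene carries loxP sites (Rbf/f). The 3 Rb intact samples (p53-/- Rbf/f) received a lacZ adenovirus and the 3 Rb deleted samples (p53-/- Rb∆f/∆f) received a Cre adenovirus, each overnight, and RNA was taken 48 hours after infection. Loss of p53, adenoviral infection and a Prostacult medium with bFGF and bEGF but no serum were common to both groups. The vector differed wherever Rb did, so their effects cannot be told apart. The series design speaks of independent experiments, but no label says whether cultures came from separate mice, so the p-values measure the spread between these samples, which may be technical. The cultures are bulk samples, in which fewer cells of a type and less RNA per cell cannot be told apart.

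Nrf2, the transcription factor encoded by Nfe2l2, turns on genes that detoxify electrophiles and keep glutathione and thioredoxin reduced. In unstressed cells Keap1 holds Nrf2 and presents it to a Cul3 ubiquitin ligase for destruction; oxidants and electrophiles modify Keap1, and Nrf2 then accumulates and binds antioxidant response elements together with small Maf proteins. Much of this control acts on the Nrf2 protein, which these arrays do not measure. Several targets also answer to other factors: Slc7a11 to Atf4, Hmox1 to Bach1, and Sod2 to NF-kB.

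Promoter windows of the members are shown because Nrf2 acts through a short DNA element that can be looked for in them. The RefSeq table of build GRCm38.p6 held windows from 250 bases before to 50 bases after the start for 8 of the 10 members, and none for Gclc and Hmox1. The core TGACNNNGC was searched on both strands and was present in 4 of these 8 members, against 12.4% of all windows of that length and 14.0% of all genes in the table. In the sequences below, given along the strand of the gene, the capitals mark the match, and 10 bases stand on either side.
Nfe2l2: tcagcccaccTGACTCCGCcatgccccgg
Srxn1: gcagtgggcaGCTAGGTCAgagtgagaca
Gclm: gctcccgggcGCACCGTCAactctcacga
Txnrd1: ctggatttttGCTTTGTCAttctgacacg
Coordinates here are those of all the bases shown. The Nfe2l2 match (within chr2:75704885-75704913, gene on the minus strand) begins 240 bases before the start and reads forward. The other matches lie on the opposite strand of plus-strand genes. That of Gclm (within chr3:122245413-122245441) is at 134 bases before the start. That of Txnrd1 (within chr10:82859104-82859132) is at 92 bases before one of its 3 listed starts, and that of Srxn1 (within chr2:152105542-152105570) is at base 29 after the start. A narrower form, TGANTCAGC, which overlaps the first motif where N is C, was added after the windows were seen. It was found in Srxn1 alone of the 8 members, 45 bases before the start (within chr2:152105469-152105497), and in 1.19% of all windows.
Srxn1: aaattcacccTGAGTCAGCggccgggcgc
These matches are descriptions of letters in the window, and no binding was measured.

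Each sample was read on its own 1-colour array, and a level is the log2 intensity above or below the 75th percentile of that array. Probes called well above background made up 59.0% to 63.3% of an array. The targeted gene, Rb1, was lower in every sample labelled deleted, at -1.15, -1.13 and -1.16 in Rb intact 1 to 3 and -3.12, -3.11 and -3.07 in Rb deleted 1 to 3, although where its probe lies against the deleted part was not tested. All Rb intact arrays and Rb deleted 1 shared the first slide, and Rb deleted 2 and 3 lay on the second, so the groups can be set side by side within the first slide only. Of 9 basal prostate markers 7 passed the filter on dim probes, Trp63 and Itga6 among them, while Krt5 did not and Krt15 was not well above background on any array; the epithelial gene Krt18 and the fibroblast collagen gene Col1a2 were, on all 6 arrays.

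Of the 10 genes 3 fell in Rb deleted cells, the regulator Nfe2l2 and the targets Nqo1 and Hmox1, and 0 rose by limma. A difference is the mean log2 level in Rb deleted less that in Rb intact, with the SE of the fit, and fell or rose means an adjusted p under 0.05 over all genes tested. Across all genes 10.8% fell and 9.66% rose. With only 10 genes, a count of 3 falls is not read as particular to them. At an unadjusted p under 0.05 all 3 and Keap1, as the 1 higher gene, passed, against 17.4% of all genes lower and 18.2% higher. The members' median difference was -0.08, against 0.01 over all genes, and their median size was 0.14, against 0.16. The 7 members not called lay between -0.19 and 0.15.

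**Figure D1:**
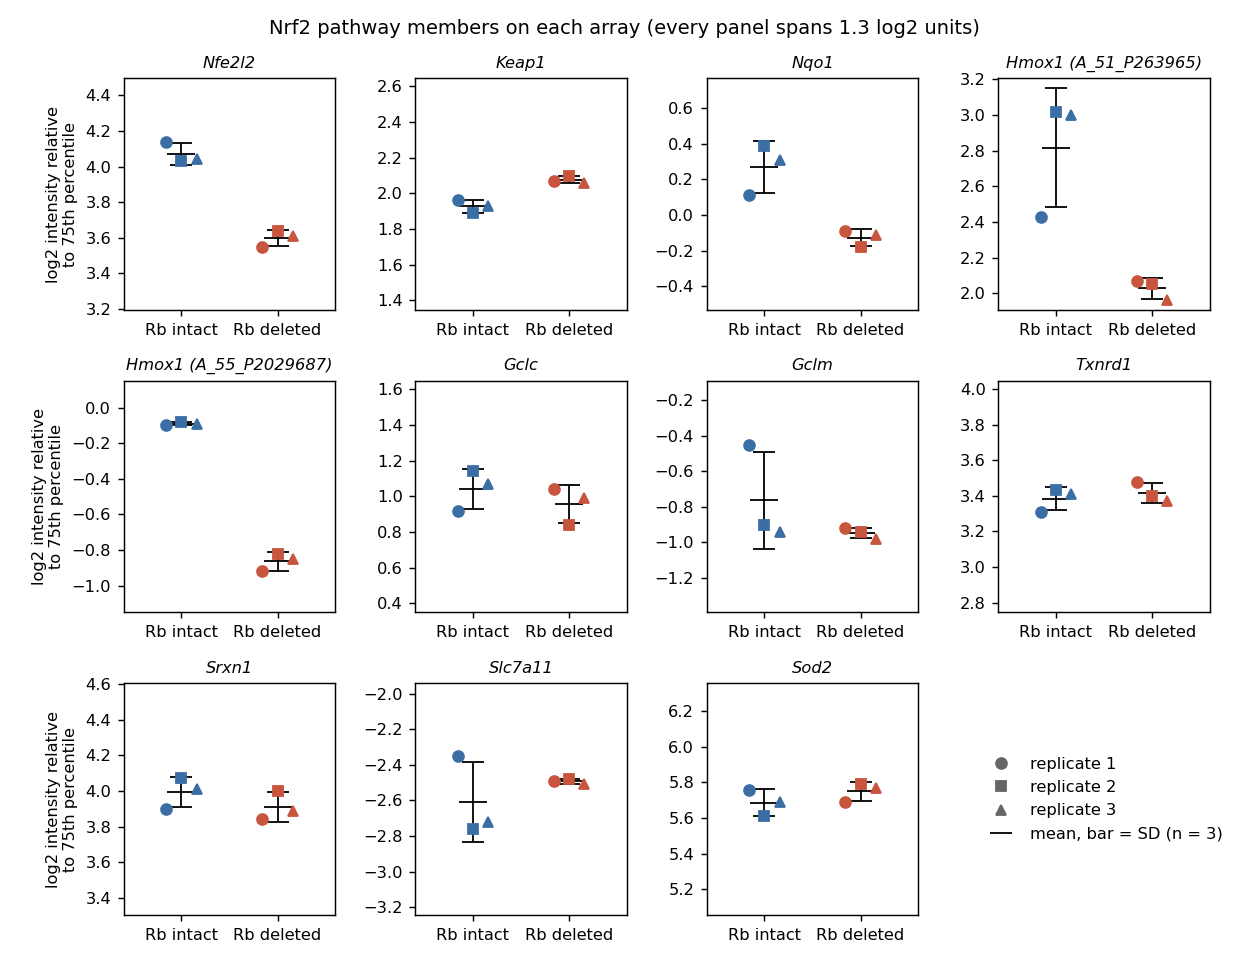
Log2 intensity against each array's 75th percentile (vertical axis) for the 11 member probes on each array, with Rb intact in blue and Rb deleted in red. Points are single arrays, horizontal marks are means and bars are SD (n = 3). The groups are apart in the panels of Nfe2l2, Keap1, Nqo1 and both Hmox1 probes and overlap in the other 6.

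Nfe2l2, the gene of the transcription factor itself, stood at 4.14, 4.03 and 4.04 in Rb intact 1 to 3 and at 3.55, 3.64 and 3.61 in Rb deleted 1 to 3. Every Rb deleted array lay below every Rb intact array, with a gap of 0.39 against a range of at most 0.11 within a group. Nfe2l2 fell by 0.47 ± 0.06 (SE, n = 3 each), to 72.1% of the intact signal (limma adjusted p = 0.00359). For single genes an exact two-sided permutation test cannot go below 0.1 with these 6 arrays, and gave that value here. Its call was kept whichever single array was left out, with adjusted p from 0.00232 to 0.0238, and it was also called with slide as a block (-0.52, limma adjusted p = 0.0391). Within the first slide the difference was the same -0.52, and Nfe2l2 was not called. That fit lends its lone Rb deleted array the spread of the others. For every gene the slide block takes its difference from the first slide alone, since the second held no Rb intact array. Rb deleted 2 and 3 add only to its estimate of spread.

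Keap1, the adaptor that targets Nrf2 for destruction, moved little. Its levels were 1.96, 1.89 and 1.93 in Rb intact 1 to 3 and 2.07, 2.10 and 2.06 in Rb deleted 1 to 3. All Rb deleted arrays were the higher ones, by a gap of 0.10. The difference was 0.15 ± 0.05 (95% interval 0.03 to 0.27), with a limma adjusted p of 0.0805. It was -0.01 with a background model on the median spot signal, and without Rb intact 1 it was 0.17 and past the threshold (adjusted p = 0.0225). In 4 of the 10 members the groups did not overlap, 3 lower and 1 higher, against 21.5% of all genes lower, 23.7% higher and 45.2% in either direction. That share is near the background.

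The other regulators and partners of Nrf2 showed no call on all 6 arrays. Of 12 listed genes 10 were tested, and 0 rose and 0 fell by limma (0 and 2 at an unadjusted p under 0.05); the 2 others, Nfe2l3 and Bach2, did not pass the filter on dim probes. Bach1, the repressor that competes for the same elements, gave -0.23 ± 0.08 (limma adjusted p = 0.0856). Rbx1, the ring subunit of the Keap1 ligase and the listed gene of highest signal, gave 0.06 ± 0.09. Cul3, its scaffold, gave 0.01 ± 0.05, and Sqstm1, the autophagy receptor p62 that can sequester Keap1, gave -0.02 ± 0.05. There were 2 calls in this list without Rb intact 1, Bach1 lower and Maff, a small Maf protein gene, higher. In that fit 18.1% of all genes fell and 19.1% rose. With the background model on the median spot signal there was 1, Bach1 lower. Between these genes and Nfe2l2 no test of a difference was made.

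Hmox1, the stress-inducible haem oxygenase that breaks haem into biliverdin, carbon monoxide and iron, had the largest fall of the members. Its first probe (A_51_P263965) read 2.43, 3.02 and 3.00 in Rb intact 1 to 3 and 2.07, 2.05 and 1.96 in Rb deleted 1 to 3. Rb intact 1 lay 0.58 below the mean of the other Rb intact arrays and still above every Rb deleted array. Hmox1 fell by 0.79 ± 0.16 on this probe, to 57.7% of the intact signal (limma adjusted p = 0.0202). Without Rb intact 1 the difference was -0.99 (adjusted p = 0.000498). Leaving out any other array ended the call, with adjusted p from 0.0576 to 0.0808, as did slide as a block (-0.75, adjusted p = 0.189).

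The second Hmox1 probe (A_55_P2029687) reads the same RefSeq transcript and did not share the low value of Rb intact 1. It stood at -0.10, -0.08 and -0.09 in Rb intact 1 to 3 and at -0.92, -0.82 and -0.85 in Rb deleted 1 to 3. The groups were separated by 0.71, and the Rb intact arrays spanned 0.02. This probe fell by 0.77 ± 0.05, to 58.6% (limma adjusted p = 0.000535 with every probe tested). In fits added after the data were seen, its call was kept when any 1 array was left out, with adjusted p from 0.000841 to 0.00586, and with slide as a block (-0.83, adjusted p = 0.0117). Within the first slide, from which the slide block takes its difference, it gave the same -0.83 and was not called.

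Nqo1, the quinone reductase often used as a readout of Nrf2 activity, was at 0.11, 0.39 and 0.31 in Rb intact 1 to 3 and at -0.09, -0.18 and -0.11 in Rb deleted 1 to 3. The groups did not overlap, and Rb intact 1 was again the intact array nearest to the deleted ones. Nqo1 fell by 0.40 ± 0.08, to 75.9% of the intact signal (limma adjusted p = 0.0217). Without Rb intact 1 the difference was -0.48 (adjusted p = 0.00255). Leaving out any other array ended the call, with adjusted p from 0.0579 to 0.0935, and so did slide as a block (-0.36, adjusted p = 0.212).

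**Figure D2:**
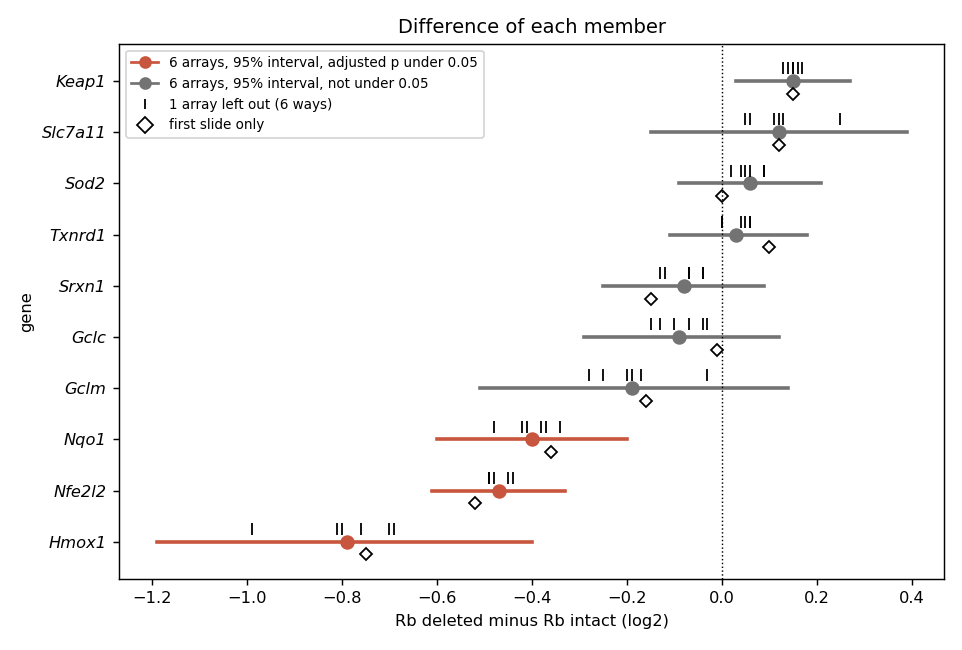
Rb deleted minus Rb intact (horizontal axis, log2) for each of the 10 members, with the 95% interval of the limma fit over 6 arrays as a line; red marks an adjusted p under 0.05. Ticks above each line are the 6 fits that leave out 1 array, and the diamond is the value within the first slide. Hmox1, Nfe2l2 and Nqo1 lie left of 0 in every one of these fits.

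The members that make or feed glutathione did not pass the test. Gclc, the catalytic subunit of glutamate-cysteine ligase, which carries out the rate-limiting step of glutathione synthesis, averaged 1.04 ± 0.11 with Rb intact and 0.96 ± 0.10 with Rb deleted (SD, n = 3). Its difference was -0.09, with a 95% interval of -0.29 to 0.12 and a limma adjusted p of 0.497, and the groups overlapped.

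Gclm, the modifier subunit of the same enzyme, read -0.45, -0.90 and -0.94 in Rb intact 1 to 3 and -0.92, -0.94 and -0.98 in Rb deleted 1 to 3. Rb intact 1 stood alone above the other 5 arrays, which lay within a narrow band. The difference was -0.19 (95% interval -0.51 to 0.14, limma adjusted p = 0.361), and without Rb intact 1 it was -0.03.

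Slc7a11, the cystine transporter subunit xCT that brings in the limiting amino acid of glutathione, read -2.35, -2.76 and -2.72 in Rb intact 1 to 3 and -2.49, -2.48 and -2.51 in Rb deleted 1 to 3. Rb intact 2 and 3 were below the Rb deleted arrays and Rb intact 1 was above them. The difference was 0.12 (95% interval -0.15 to 0.39, limma adjusted p = 0.489). Without Rb intact 1 it was 0.25 and past the threshold (adjusted p = 0.00618), while without Rb intact 2 or 3 it was 0.05 and 0.06. Rb intact 1 differed from the mean of the other Rb intact arrays by more than 0.4 for 2 of the 10 members, Hmox1 and Gclm, and for 16.2% of all genes.

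The thioredoxin members were near 0. Txnrd1, the cytosolic thioredoxin reductase, averaged 3.38 ± 0.07 with Rb intact and 3.42 ± 0.06 with Rb deleted, a difference of 0.03 with a 95% interval of -0.11 to 0.18. Srxn1, the sulfiredoxin that restores overoxidised peroxiredoxins, averaged 3.99 ± 0.09 and 3.91 ± 0.08, a difference of -0.08 with an interval of -0.25 to 0.09. The groups overlapped for both genes (limma adjusted p = 0.719 and 0.466). Neither interval reaches further than 0.25 from 0.

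Sod2, the mitochondrial superoxide dismutase, averaged 5.69 ± 0.08 with Rb intact and 5.75 ± 0.05 with Rb deleted (SD, n = 3). The difference was 0.06, with a 95% interval of -0.09 to 0.21 and a limma adjusted p of 0.541. Its sign was not stable: with the background model on the median spot signal the difference was -0.13, and within the first slide it was -0.00127.

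The calls among the members moved with the arrays used, as did those among all genes. Without Rb intact 1, 3 members fell and 2 rose, while 18.1% of all genes fell and 19.1% rose. Leaving out any other array left 1 member fallen, Nfe2l2, and 0 risen. The matching shares of all genes that fell and rose were 7.3% and 5.4% without Rb intact 2, 6.87% and 5.45% without Rb intact 3, 7.08% and 5.88% without Rb deleted 1, 5.74% and 3.3% without Rb deleted 2, and 5.69% and 3.46% without Rb deleted 3. With slide as a block 1 member fell, against 3.42% of all genes (1.51% rose), and on the first slide alone 0 did, against 0.903% (0.218% rose).

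**Figure D3:**
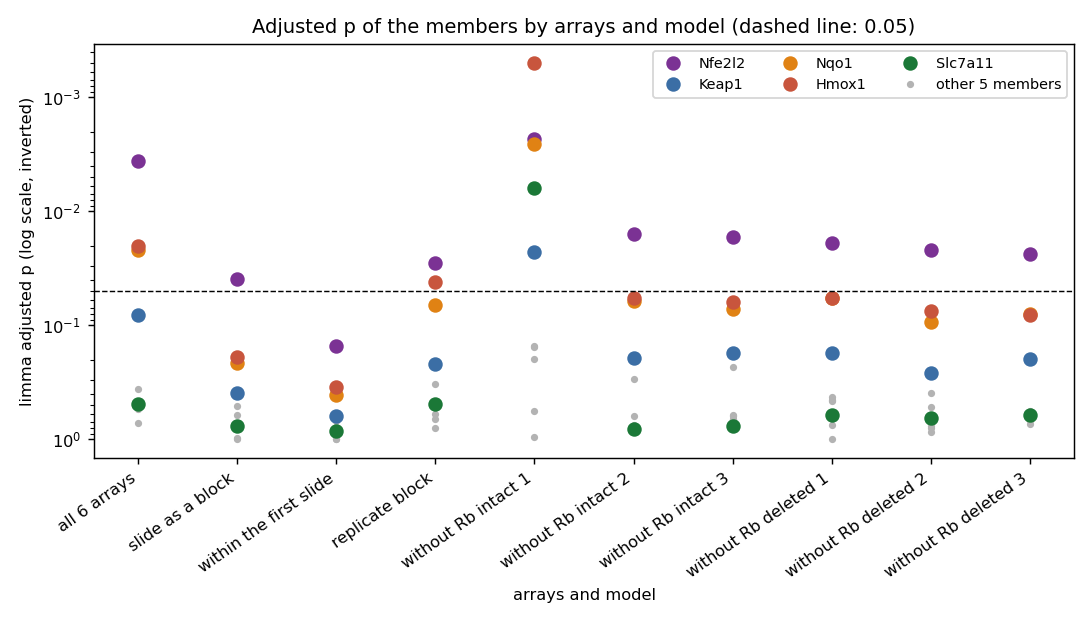
Limma adjusted p (vertical axis, log scale, inverted so that smaller values are higher) of the 10 members with all 6 arrays, with slide or replicate number as a block, within the first slide, and without each array in turn. The dashed line is 0.05. Nfe2l2 is above the line in all columns except the first slide alone, and Keap1 and Slc7a11 are above it without Rb intact 1 only.

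Beyond the 10 members, 75 other genes of 7 pathway lists were tested, of 81 listed. Of these 4 rose and 12 fell, which is a smaller share rising and a larger share falling than the 9.66% and 10.8% of all genes, with a list median of -0.12 against 0.01 over all genes. The lists were written with earlier results of these data known, so their counts describe these genes and support nothing further. The groups did not overlap in 38 of the 75, of which 29 were lower and 9 higher. Over all genes the share was 45.2%, with 21.5% lower and 23.7% higher. Calls among the 75 numbered 8 rises and 28 falls without Rb intact 1, against 19.1% and 18.1% of all genes. Without Rb deleted 2, 0 rose and 6 fell, against 3.3% and 5.74%. The counts were the same without Rb deleted 3, against 3.46% and 5.69%.

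Of the genes that make or use glutathione, the longest of these lists, 7 fell and 2 rose among 20 tested. Over all genes 10.8% fell and 9.66% rose. There were 11 falls and 3 rises without Rb intact 1, against 18.1% and 19.1% of all genes. Without Rb deleted 1, 5 fell and 0 rose, against 7.08% and 5.88%. Without Rb deleted 2, 3 fell and 0 rose, against 5.74% and 3.3%. The counts were the same without Rb deleted 3, against 5.69% and 3.46%. Of all genes 3.42% fell with slide as a block. With slide as a block 2 fell, Gsta4 and Mgst3, and on the first slide alone 0 did. Gsta4, a glutathione transferase for lipid aldehydes, was at -3.15, -3.33 and -3.33 in Rb intact 1 to 3 and at -4.02, -4.05 and -4.05 in Rb deleted 1 to 3. The Rb deleted arrays lay close together and well below the others. Gsta4 fell by 0.77 ± 0.07, to 58.5% of the intact signal (limma adjusted p = 0.0011), and was called with slide as a block too (adjusted p = 0.0257). The peroxidase gene Gpx3 fell by 0.79 ± 0.14, Mgst1, a microsomal transferase, fell by 0.43 ± 0.06, and Gstm2, a transferase of the mu class, fell by 0.38 ± 0.06. The Gpx3 call was lost without Rb deleted 2 (with an adjusted p of 0.0113 on all arrays) and that of Gstm2 without Rb deleted 3. Gstm and Gsta genes have close paralogs, and cross-hybridisation between them was not tested.

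The 2 rises of that list were the cystine and amino acid transport subunit Slc3a2, the partner chain of Slc7a11, at 0.40 ± 0.09, and Chac1, which degrades glutathione, at 0.65 ± 0.16 (limma adjusted p = 0.0246 and 0.0351). They were named after their values were seen, because the rises among the 75 genes were so few. Both also stand in the list of Atf4 targets below and are counted there again. The Slc3a2 call was lost without Rb intact 3 or any Rb deleted array, and that of Chac1 without any array other than Rb intact 1. Gss, which completes glutathione synthesis downstream of Gclc and Gclm, fell by 0.30 ± 0.06 and lost its call without any 1 Rb deleted array. Gsr, the reductase that recycles oxidised glutathione, gave 0.38 ± 0.12 (adjusted p = 0.0741).

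The thioredoxin and peroxiredoxin list held 12 tested genes, of which 0 rose and 0 fell by limma (1 higher and 2 lower at an unadjusted p under 0.05). Txn1, thioredoxin itself and the gene of highest signal there, gave -0.16 ± 0.08, and Prdx1, a peroxiredoxin that Srxn1 repairs, gave -0.16 ± 0.05. Without Rb intact 1, 2 of the 12 rose and 2 fell, in a fit where 19.1% of all genes rose and 18.1% fell. The 7 NADPH genes supply the reducing power for both systems. Of these, Idh1 fell by 0.26 ± 0.06 and its mitochondrial relative Idh2 rose by 0.26 ± 0.06, against 10.8% and 9.66% of all genes. Both calls were lost without any array other than Rb intact 1. Without that array 4 of the 7 fell and 1 rose, against the same 18.1% and 19.1% of all genes. G6pdx, the entry enzyme of the pentose phosphate pathway, gave -0.21 ± 0.06 (limma adjusted p = 0.0549).

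Genes of haem and iron handling, where Hmox1 acts, held 1 fall and 1 rise among 9, against 10.8% and 9.66% of all genes. The iron exporter ferroportin, Slc40a1, fell by 0.69 ± 0.07, to 62.1% of the intact signal (limma adjusted p = 0.00217), and was called with slide as a block (adjusted p = 0.0422). The transferrin receptor gene Tfrc rose by 0.23 ± 0.06, a call lost without any array other than Rb intact 1 and with median scaling, and the mean of its passing probes gave 0.10. The ferritin genes Fth1 and Ftl1, which store the iron that haem oxygenase sets free, gave -0.20 ± 0.06 and -0.16 ± 0.07 (adjusted p = 0.0585 and 0.161). The constitutive haem oxygenase gene Hmox2 gave 0.14 ± 0.11.

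Beside Sod2, the secreted superoxide dismutase gene Sod3 read 0.87, 0.33 and 0.51 in Rb intact 1 to 3 and -0.35, -0.36 and -0.45 in Rb deleted 1 to 3. The groups were far apart, although the Rb intact arrays varied. Sod3 fell by 0.95 ± 0.14, to 51.7% of the intact signal (limma adjusted p = 0.00644). The cytosolic Sod1 gave 0.05 ± 0.06, and catalase, Cat, gave -0.28 ± 0.15. Of 14 detoxification and efflux genes 2 fell and 0 rose, against 10.8% and 9.66% of all genes. The efflux pump Abcc3 fell by 0.48 ± 0.06 and the glucuronosyltransferase gene Ugt1a6a by 0.52 ± 0.09. Ugt1a genes share exons, and their part in that signal was not tested. The Ugt1a6a call was lost without Rb deleted 2 or Rb deleted 3. There were 6 falls among the 14 without Rb intact 1, against 18.1% of all genes. Nqo2, the relative of Nqo1, gave -0.19 ± 0.08 (adjusted p = 0.139). Of the 16 called genes of the 7 lists, 5 kept their call whichever array was left out, namely Gsta4, Mgst1, Slc40a1, Sod3 and Abcc3. With slide as a block the calls of Mgst1, Sod3 and Abcc3 were lost (limma adjusted p = 0.0746, 0.0891 and 0.0614).

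**Figure D4:**
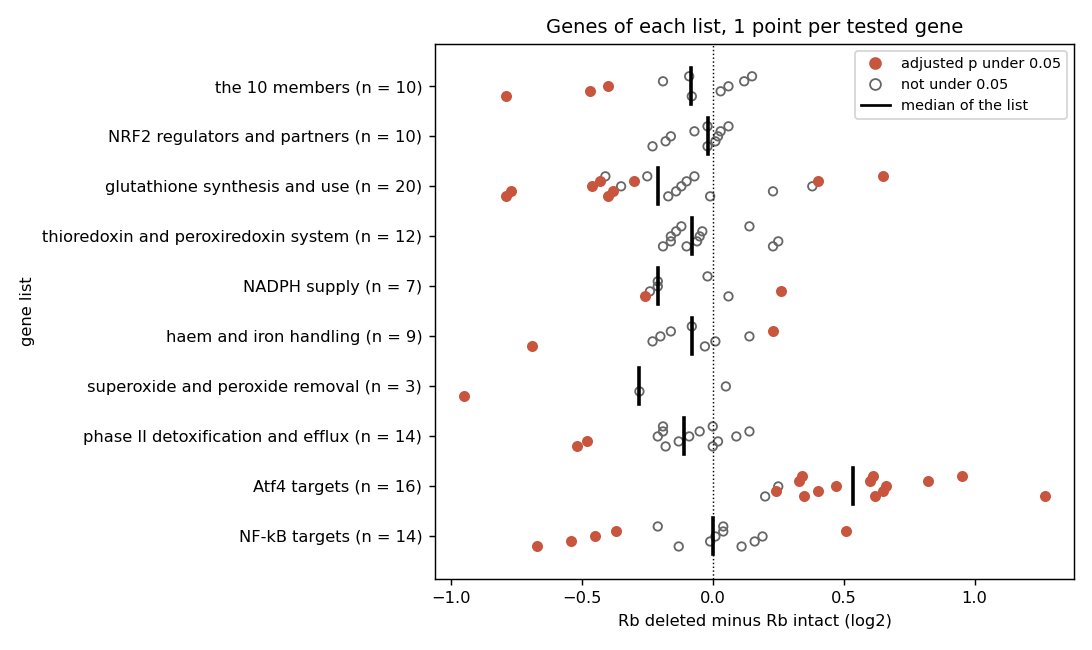
Rb deleted minus Rb intact (horizontal axis, log2) for the 10 members and the tested genes of each list, 1 point per gene, filled red where the limma adjusted p was under 0.05; the black bar is the list's median. The medians of the 7 pathway lists lie between -0.28 and -0.02, that of the Atf4 targets (with Atf4 itself) is 0.54 and that of the NF-kB targets is 0.00.

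Slc7a11 and Sod2 were also set beside other targets of their second regulators. Several of the Atf4 targets were already known to rise here when the list was written. Atf4 is the transcription factor of the amino acid and integrated stress response, and its list held 16 genes, Atf4 itself included. Of these 14 rose and 0 fell, with a median of 0.54, against 9.66% and 10.8% of all genes. Among the rises were Atf4 at 0.33 ± 0.07, Atf3 at 1.27 ± 0.10, Ddit3 at 0.82 ± 0.08, Shmt2 at 0.61 ± 0.06 and Slc7a5 at 0.47 ± 0.06. Slc3a2, Chac1 and Sesn2 also stood in lists above. On all 6 arrays Slc7a11, at 0.12 ± 0.11, was below the whole of this list, whose lowest difference was 0.20 for Vldlr. Without Rb intact 1 Slc7a11 was at 0.25, and the list's lowest difference was not read in that fit. With slide as a block 4 of the 16 rose, against 1.51% of all genes, and without Rb deleted 3, 7 did, against 3.46%. Of 14 NF-kB targets 1 rose and 4 fell, with a median of 0.00, against 9.66% and 10.8% of all genes. Saa3 fell by 0.67 ± 0.07, Tnfaip3 fell by 0.54 ± 0.09 and Cxcl1 fell by 0.45 ± 0.10, while Il6 rose by 0.51 ± 0.09. With slide as a block 1 of these 14 fell, against 3.42% of all genes. Without Rb deleted 2, 2 fell and 0 rose, against 5.74% and 3.3%. The counts were the same without Rb deleted 3, against 5.69% and 3.46%.

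Some markers of cell types moved with the members that fell. Over all genes 10.8% fell and 9.66% rose. Of 9 basal epithelial markers 7 were tested and 6 fell. Aqp3 fell by 0.79 ± 0.07, Itga6 by 0.58 ± 0.08 and Itgb4 by 0.42 ± 0.08. Dst fell by 0.34 ± 0.06, Col17a1 by 0.47 ± 0.11 and Trp63 by 0.26 ± 0.07 (limma adjusted p = 0.0478 for Trp63). The other tested marker, Krt14, gave 0.07 ± 0.14. Krt14 and Col17a1 were dim, with Rb intact means of -5.01 and -5.53. The log2 of the summed level of the 7 ranged from 4.90 to 5.15 in Rb intact and from 4.44 to 4.48 in Rb deleted. Of 9 tested fibroblast and smooth muscle markers the contractile genes Acta2, Tagln and Cnn1 fell, and the summed level ranged from 8.12 to 8.17 and from 7.87 to 8.02. The other 6 were not called. Pdgfra gave 0.02, Col1a2 0.00, Col1a1 -0.09, Pdgfrb -0.13, Vim -0.22 and Col3a1 -0.29. Of 7 luminal markers Fkbp5 rose by 0.21 ± 0.05 and 0 fell, and the list's median was -0.04. Among those not called, Krt8 gave 0.42 ± 0.13 (limma adjusted p = 0.0682) and Krt18, the marker of highest signal, gave -0.16 ± 0.08. The summed level of this list ranged from 3.82 to 3.95 and from 3.71 to 3.86. No marker call, here or in the next paragraph, was read with slide as a block or with an array left out. The part of these cell types in the falls of Nfe2l2, Nqo1 and Hmox1 was not tested.

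Macrophages are rich in Hmox1, so leukocyte markers were read beside it. The marker of highest signal, Itgam, was at 0.73, 2.41 and 2.44 in Rb intact 1 to 3 and at 1.85, 1.63 and 1.61 in Rb deleted 1 to 3, a difference of -0.17 ± 0.46. It was low on Rb intact 1, as the first Hmox1 probe was. The second Hmox1 probe was not, at -0.10 there against -0.08 and -0.09 in Rb intact 2 and 3. What part Itgam had in the first probe's values was not tested. Ptprc and Lyz2 were not well above background on any array, and Adgre1 did not pass the filter. Of 4 tested leukocyte markers Cd14 rose by 0.36 ± 0.06 and 0 fell, with a summed level from 1.91 to 2.94 in Rb intact and from 2.42 to 2.60 in Rb deleted. Of 5 endothelial markers Flt1 rose by 0.60 ± 0.12, and Kdr gave -0.10 ± 0.12. Vwf passed the filter through Rb intact alone, being well above background on 1 of the 3 arrays labelled deleted, so no size is given for it; the summed level ranged from 2.04 to 2.06 and from 1.87 to 2.13. Of 4 neuroendocrine markers 0 passed limma's threshold, also unadjusted, Ncam1 gave 0.16 ± 0.12 and Chga was not well above background on any array; the summed level ranged from 2.60 to 2.95 and from 2.80 to 2.91.

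Profiles over the 6 arrays were last compared with those of all genes tested, each centred on its own mean, by the root mean square distance on the log2 scale. Nearest to Hmox1 (first probe) were Tmsb15l at a distance of 0.0633, the peroxidase gene Gpx3 at 0.0668 and Akr1c18, an aldo-keto reductase gene, at 0.0794. Nearest to Nfe2l2 were Serping1, the C1 inhibitor of complement, at 0.0203, the cytokine gene Il17d at 0.0223 and Rasgef1a at 0.0231. These distances describe 6 arrays and say nothing of shared function.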

How the data were processed

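Per the file headers, the authors made the deposited intensity values with Agilent Feature Extraction 11.0.1.1 (the submitters' processing notes name 10.7.3.1); the processed intensity is background-subtracted and not scaled between arrays. The deposited files also hold flags (0 or 1) for background, saturation and outlying spots. The authors' deposited log2 table, whose scale and centring no label gives, equalled the log2 processed intensity minus 1 constant per array, within 0.01 for 100% of its 22164 non-control probes, in the same direction; its column medians lay between -0.52 and -0.49.

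From the 43020 non-control spots per array, outlying spots were dropped where a probe had others, spots were averaged to 39429 probes, and the 75th percentile of log2 intensity was subtracted from each array. No member spot was outlying. Probes were named through RefSeq accessions in a table of GRCm38.p6; the array was designed on mm9, so its gene coordinates were not used, and 12002 probes stayed unnamed. A probe was kept if well above background on all 3 arrays of a group, and a gene was represented by its passing probe of highest mean. limma 3.58.1 (R 4.3.3) gave differences, SE and p-values, adjusted by Benjamini-Hochberg over 13731 genes. The scripts were tested on simulated data. The number of arrays limits the precision.

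The members, lists and tests were chosen with earlier results of these data known. Named were all 10 members, up to 4 called genes per list by smallest p, the gene of highest signal where a list had no call, called markers, and the 3 nearest profiles of the 2 members with the largest differences; others were named after their values were seen. Alternatives covered scaling, background, filter, probe choice, variance model, slide, replicate number, threshold, the deposited table and leaving out each array. Some labels and marker genes are not reported here.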

Additional observations from a re-analysis of the deposited data

How the results depend on the processing

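The alternative fits covered all genes. They were read for the members' differences, the called list genes named by the rule and, in part, the second Hmox1 probe. They were also read for the counts of calls among members, lists and all genes. Other printed differences and the marker calls were not read under them. The counts of non-overlap and of unadjusted p were not rerun. The falls of Nfe2l2, Hmox1 and Nqo1 kept their sign in all 19 alternatives, from -0.61 to -0.44, -0.99 to -0.69 and -0.48 to -0.34, with the call kept in 18, 10 and 9. The 19 are not separate checks of sign. Changes of threshold, variance model, replicate block or genes tested could not turn a sign here, and both slide settings share the same difference. Among members not called the sign turned for Keap1 (-0.01) and Sod2 (-0.13) under the background model on median signal, for Sod2 in both slide settings (-0.00127), and for Txnrd1 without Rb intact 1 (-0.00348, against up to 0.06 without another array). The member falls, 3 on all arrays, numbered 1 with no filter on dim probes, 0 on the first slide alone, 1 with slide as a block and 1 at an adjusted p under 0.01. Leaving out 1 array gave 1 to 3 falls and 0 to 2 rises. The pathway rises, 4 on all arrays, numbered 0 under each of these 4 settings, and 0 to 8 with 1 array left out; the falls, 12 on all arrays, numbered 3 with slide as a block, 6 at the stricter threshold, 0 on the first slide alone, and 6 to 28 with 1 array left out.

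Over all genes 1326 rose and 1478 fell. With no filter 609 and 876 did, at the stricter threshold 428 and 695, on the first slide alone 30 and 124, with slide as a block 208 and 469, and with 1 array left out 453 to 2620 and 781 to 2482. More genes tested without the filter and fewer samples within the slide are part of those settings; the cause was not tested otherwise. No pairing by replicate number was seen in the values, as same-numbered arrays deviated together with r of -0.03, -0.06 and 0.02. With so few arrays this cannot show that the cultures were unpaired, and no label tells. With the replicate block 0 pathway genes rose, 690 of all genes rose and 952 fell, and of the members Nfe2l2 and Hmox1 were called and Nqo1 was not (limma adjusted p = 0.0658). The small number of arrays, with 1 Rb deleted array on the first slide, limits these values.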
